A study of Mus musculus with 8 samples.

Results

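The Schlafen genes (Slfn) encode a family of proteins found in immune cells and in many other tissues of mammals, and most of the mouse genes lie side by side in 1 cluster on chromosome 11. All 7 listed members, Slfn1, Slfn2, Slfn3, Slfn4, Slfn5, Slfn8 and Slfn9, were found by gene symbol among the 18901 genes of the deposited table. The question was whether their levels in skin differed after Tbx20, a T-box transcription factor gene, was deleted from keratinocytes. RNA was sequenced from cheek skin that had received an intradermal injection of 10 µg of B-type natriuretic peptide (BNP), which makes mice scratch. The mice were 7-week-old females. Skin was collected 5 h after a scratching session of 30 min had been filmed.

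TBX20fl/fl;K14-Cre mice (n = 4) carried floxed Tbx20 alleles and a Cre recombinase driven by the keratin 14 promoter, which is active in basal keratinocytes. TBX20fl/fl littermates (n = 4) carried the floxed alleles without Cre and are called controls below. Every mouse of both genotypes received BNP, so no uninjected or vehicle-injected skin is part of the comparison. The deletion is limited to keratin 14 lineage cells, whereas the RNA came from whole skin, in which a lower level of a gene can reflect fewer cells of a type or less RNA per cell, and these cannot be told apart. The total of the estimated counts was 16056282 to 19880654 per mouse. Tbx20 itself had 0 to 3 counts in controls and 0 to 2 counts with K14-Cre, at or under the 3 counts taken as the lowest number detected, so this measurement does not check the deletion.

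Schlafen proteins share a conserved N-terminal core. Slfn1 and Slfn2 are short proteins made of little more than this core, Slfn3 and Slfn4 are of intermediate length, and Slfn5, Slfn8 and Slfn9 carry in addition a C-terminal part with motifs of a helicase. Several members are induced by type I interferons, the secreted antiviral proteins that act through the receptor Ifnar1/Ifnar2 and transcription factors such as Stat2 and Irf9. They are known mainly from T cells and from cells of the monocyte and macrophage lineage, where they have been tied to cell quiescence, differentiation and the restriction of viruses.

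On GRCm38.p6 the RefSeq annotation places the members on chromosome 11 in the order Slfn5 (82951349 to 82964850, + strand), Slfn9 (82974316 to 82991830, − strand), Slfn8 (83002125 to 83020810, − strand), Slfn2 (83065112 to 83070678, + strand), Slfn1 (83116820 to 83122670, + strand), Slfn4 (83175172 to 83190216, + strand) and Slfn3 (83191330 to 83215154, + strand). The pseudogene Slfn10-ps lies between Slfn8 and Slfn2. The encoded proteins have 337 residues for Slfn1, 378 for Slfn2, 640 for Slfn3, 602 for Slfn4, 884 for Slfn5, and 910 for both Slfn8 and Slfn9.

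Close copies within the cluster limit how well reads can be assigned. Coding sequences of Slfn8 and Slfn9 were identical at 92.7% of aligned bases, and those of Slfn3 and Slfn4 at 91.8%. The next closest pair, Slfn2 and Slfn3, reached 75.2%, and the most distant pair, Slfn1 and Slfn5, reached 57.6%. A stretch of 60 coding bases is shown for each close pair because a 50-base read within it differs between the genes at only the capital letters. The stretches cover coding bases 935 to 994 of Slfn3, 803 to 862 of Slfn4, and 1336 to 1395 of Slfn8 and Slfn9, from the GENCODE annotation of GRCm38.
Slfn3: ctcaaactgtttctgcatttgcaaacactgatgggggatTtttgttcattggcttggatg
Slfn4: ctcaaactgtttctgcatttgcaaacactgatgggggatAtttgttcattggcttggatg
Slfn8: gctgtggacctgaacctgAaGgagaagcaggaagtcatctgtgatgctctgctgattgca
Slfn9: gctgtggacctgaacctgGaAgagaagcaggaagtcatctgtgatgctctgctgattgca

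Of all 50-base stretches in the transcripts of a gene, the share found in some other gene was 0.61% for Slfn1, 4.27% for Slfn2, 15.99% for Slfn3, 11.3% for Slfn4, 11.07% for Slfn5, 14.58% for Slfn8 and 11.91% for Slfn9. Most stretches of Slfn1 and Slfn2 are therefore unique to the gene. The values of Slfn3, Slfn4, Slfn8 and Slfn9 are less certain, since the counting could split or misplace reads among copies. Slfn5 shared 467 of its 6324 stretches with the antisense gene Slfn5os and none with another Schlafen gene, and whether the counting used strand is not given in the sources used here. The deposited table also lists the chromosome 11 members on a scaffold outside the chromosomes, with up to 4 placements for a transcript.

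Promoter sequences show which members carry the core of an interferon-stimulated response element. The letters GAAA, any 2 bases and GAAA again, searched on both strands in the 300 bases around the starts that RefSeq promoters are drawn from, were found for 3 of the 7 members (Slfn5, Slfn8 and Slfn9), and in 3.44% of 32851 promoters overall. The matches are printed on the strand of the gene, with the matched letters in capitals. They lie at chr11:82951937-82951966 for Slfn5, chr11:83020839-83020868 for Slfn8 and chr11:82991856-82991885 for Slfn9 of GRCm38.p6. The start used for Slfn5, at 82952102, lies inside the span given above, downstream of its first base.
Slfn5: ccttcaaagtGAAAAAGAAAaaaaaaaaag
Slfn8: atttgagcagTTTCGTTTTCcccaaaagca
Slfn9: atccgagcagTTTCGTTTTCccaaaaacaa

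Slfn8 and Slfn9 held the same 10 matched letters in the opposite orientation to Slfn5. No match was found for Slfn1, Slfn2, Slfn3 or Slfn4 in these windows. The letters AGGTGTG, the half-site that T-box proteins bind, were found for 0 of the 7 members and in 5.84% of all promoters. A match of letters is a description of the sequence and not a binding site.

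All 7 members were detected in every mouse. On the FPKM scale, which counts reads per length and depth, Slfn2 was the highest member and Slfn5 the next in 8 of 8 mice, and together they made up 57.9% to 74.3% of the summed FPKM of the family. Slfn9 and Slfn3 were at the low end, and Slfn9 was above Slfn3 in 8 of 8 mice. The members between them were not separated beyond the spread of the mice. Slfn4 exceeded Slfn8 in 1 of 8 mice, Slfn8 exceeded Slfn1 in 6 of 8, and Slfn1 exceeded Slfn9 in 7 of 8. Slfn10-ps was near 1 FPKM, with 1.34 ± 0.486 in controls and 1.21 ± 0.36 in TBX20fl/fl;K14-Cre mice (SD, n = 4 each). Slfnl1, a distant relative on chromosome 4, had 3 counts or fewer in the mean, and Slfn14 was not analysed here.

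In TBX20fl/fl;K14-Cre skin, Slfn1, Slfn2 and Slfn4 measured 56.9%, 58.3% and 53.3% of the mean control FPKM. Slfn3, Slfn5 and Slfn9 measured 95.2%, 107.5% and 94.6%, and Slfn8 measured 83.1%. The edgeR quasi-likelihood test passed no member after Benjamini-Hochberg adjustment over 17124 genes, nor any other gene (0.0% of all tested). DESeq2 passed 10 genes and no member. At an unadjusted p under 0.05, 1431 genes remained in the edgeR test, and 3 of the 7 members (Slfn1, Slfn2 and Slfn4) were among the 5.91% of all genes that were lower at that level. The number of genes depended on single mice, at 2405 without control mouse 1, 2311 without control mouse 4, 929 without TBX20fl/fl;K14-Cre mouse 2 and 823 without TBX20fl/fl;K14-Cre mouse 3. When each mouse was left out in turn, 3 or 4 members were lower at that level beside 3.15% to 10.9% of all genes.

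**Figure D1:**
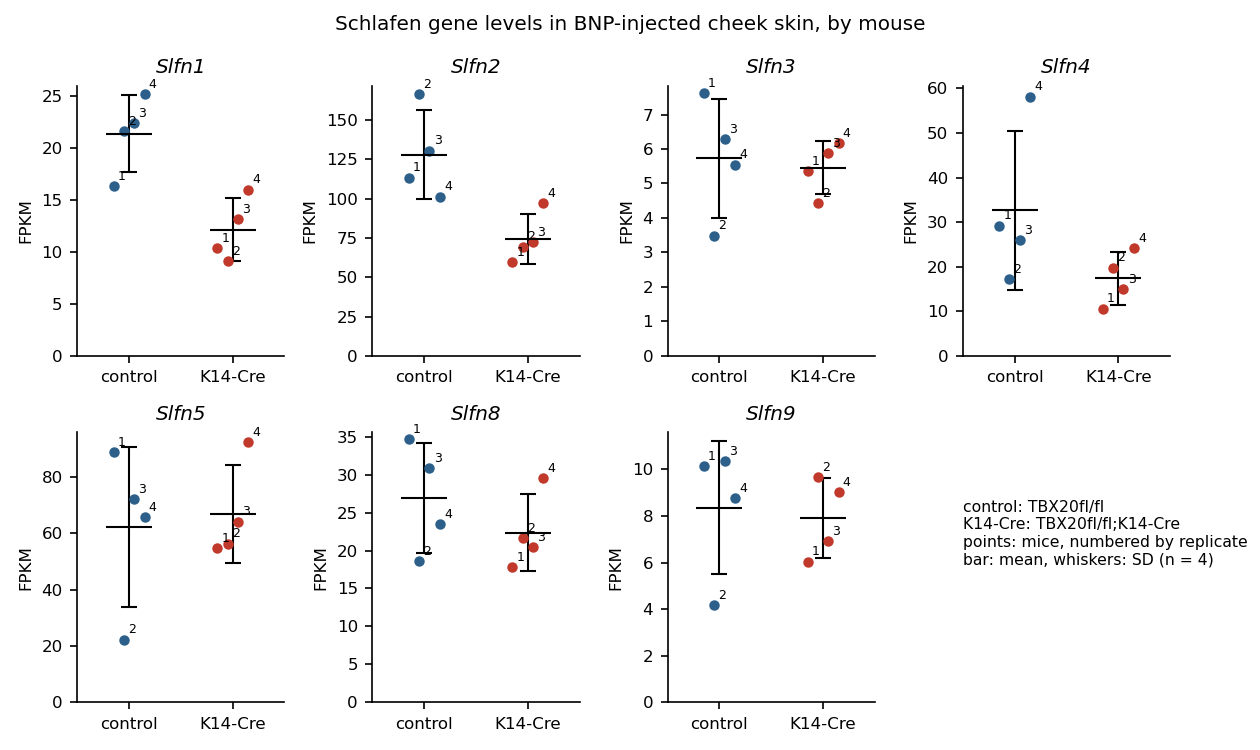
FPKM of each Schlafen gene in each mouse, with 1 panel per gene, points numbered by replicate, the mean as a bar and the SD as whiskers (n = 4 per genotype). Slfn1 and Slfn2 are the panels in which the genotypes do not overlap, and mouse 2 is the lowest control for Slfn3, Slfn4, Slfn5, Slfn8 and Slfn9 but the highest for Slfn2.

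Slfn1, a short member that slows the growth of thymocytes when it is expressed in excess, had FPKM values of 10.37, 9.11, 13.16 and 16.01 in TBX20fl/fl;K14-Cre mice 1 to 4. Controls 1 to 4 had 16.31, 21.64, 22.39 and 25.17. The groups did not overlap, although TBX20fl/fl;K14-Cre mouse 4 was just below control 1. Group means were 12.2 ± 3.07 and 21.4 ± 3.70 (SD, n = 4 each). An exact permutation test of the means, two-sided over 70 assignments of the mice, gave p = 0.0286, the smallest this design allows, and 0.388 after adjustment over 15970 genes. The log2 fold change on the count scale was −0.999 (SE 0.233, edgeR unadjusted p = 0.00187, adjusted p = 0.498).

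Slfn2, the most abundant member and a gene needed by T cells and monocytes to stay quiescent, had 59.55, 69.38, 72.19 and 97.00 FPKM in TBX20fl/fl;K14-Cre mice 1 to 4. In controls 1 to 4 the values were 113.33, 166.10, 130.38 and 101.20. Again no value of one genotype lay within the range of the other, and TBX20fl/fl;K14-Cre mouse 4 was just below control 4. The means were 74.5 ± 15.9 and 127.8 ± 28.2 (SD, n = 4 each), with an exact permutation p of 0.0286. On the count scale the log2 fold change was −1.002 (SE 0.280, edgeR adjusted p = 0.498). It was −0.68 without control mouse 2, which had the highest level. Non-overlapping groups with lower FPKM were found for 2 of the 7 members and for 1.92% of all genes tested, and groups with higher FPKM for 0 members and 5.45% of all genes.

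Slfn4, a member known from myeloid cells, had 10.59, 19.81, 14.94 and 24.24 FPKM in TBX20fl/fl;K14-Cre mice 1 to 4. Controls had 29.24, 17.15, 25.95 and 58.18. The groups overlapped through control mouse 2, and control mouse 4 stood far above the other mice. Means were 17.4 ± 5.92 and 32.6 ± 17.8 (SD, n = 4 each), and the exact permutation p was 0.114. The log2 fold change on the count scale was −1.02 (SE 0.334, edgeR adjusted p = 0.498) with all mice and −0.65 without control mouse 4.

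Slfn3, the close copy of Slfn4, showed no such difference. Its FPKM was 5.35, 4.42, 5.89 and 6.18 in TBX20fl/fl;K14-Cre mice 1 to 4 and 7.62, 3.49, 6.29 and 5.55 in controls, and the controls spanned the whole range of the other genotype. The log2 fold change was −0.21 (SE 0.187, edgeR adjusted p = 0.565). Within each mouse, the log2 ratio of Slfn4 to Slfn3 on the CPM scale averaged 3.53 ± 0.66 in controls and 2.73 ± 0.55 in TBX20fl/fl;K14-Cre mice (SD, n = 4 each). The difference of −0.80 gave an exact permutation p of 0.143. With the transcript length trend described below removed, it was −1.16 with an exact permutation p of 0.0571. On both scales each of the 4 numbered pairs had the lower ratio in its TBX20fl/fl;K14-Cre mouse, and an exact sign-flip test over these pairs gave p = 0.125, the smallest that 4 pairs allow. This ratio was examined after the values of both genes had been seen.

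Slfn5, the long member with the highest level, had 54.68, 56.35, 64.12 and 92.24 FPKM in TBX20fl/fl;K14-Cre mice 1 to 4. Controls had 88.73, 22.29, 72.02 and 65.63. Control mouse 2 was far below all other mice, and the other values of the genotypes were mixed. Means were 66.9 ± 17.4 and 62.2 ± 28.3 (SD, n = 4 each). The log2 fold change was 0.01 (SE 0.310, edgeR adjusted p = 0.993), and it was −0.22 without control mouse 2.

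Slfn8 and Slfn9, the close pair of long members, differed less than the spread between mice. Slfn8 had 17.81, 21.67, 20.42 and 29.51 FPKM in TBX20fl/fl;K14-Cre mice 1 to 4 and 34.67, 18.65, 30.84 and 23.45 in controls. Slfn9 had 6.04, 9.66, 6.91 and 9.03 against 10.15, 4.19, 10.35 and 8.76. In both genes control mice 1 and 3 were the highest and control mouse 2 was the lowest control. The log2 fold changes were −0.41 (SE 0.197, edgeR adjusted p = 0.498) for Slfn8 and −0.17 (SE 0.204, edgeR adjusted p = 0.641) for Slfn9. The log2 ratio of Slfn8 to Slfn9 was 0.38 ± 0.18 and 0.63 ± 0.25 (SD, n = 4 each) in TBX20fl/fl;K14-Cre and control mice, with an exact permutation p of 0.171. With the length trend removed the difference was 0.07, with an exact permutation p of 0.686.

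Control mouse 2 bears on each of these comparisons. Its TMM scaling factor was 0.735 against 1.01 to 1.07 in the other 7 mice, and its median Spearman correlation with the other mice over genes was 0.919 against 0.974 to 0.990. Long transcripts were low and short transcripts high in this library. Slfn2, with an effective transcript length of 1615 bases, stood 1.02 above the other controls in log2 CPM, and Slfn1 (1844 bases) stood 0.53 above. For Slfn5 (5981 bases) the difference from the other controls was −1.26, for Slfn9 (8402 bases) −0.64, for Slfn4 (3857 bases) −0.56 and for Slfn8 (3895 bases) −0.21. Slfn3 departed from this order, since it is short at 1766 bases but had a difference of −0.40. Slfn9, the longest, was less low than the trend over genes, which was at −1.37 for its length. The ratio of Slfn2 to Slfn5 FPKM was 7.45 in control mouse 2 and 1.05 to 1.81 in the other mice.

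**Figure D2:**
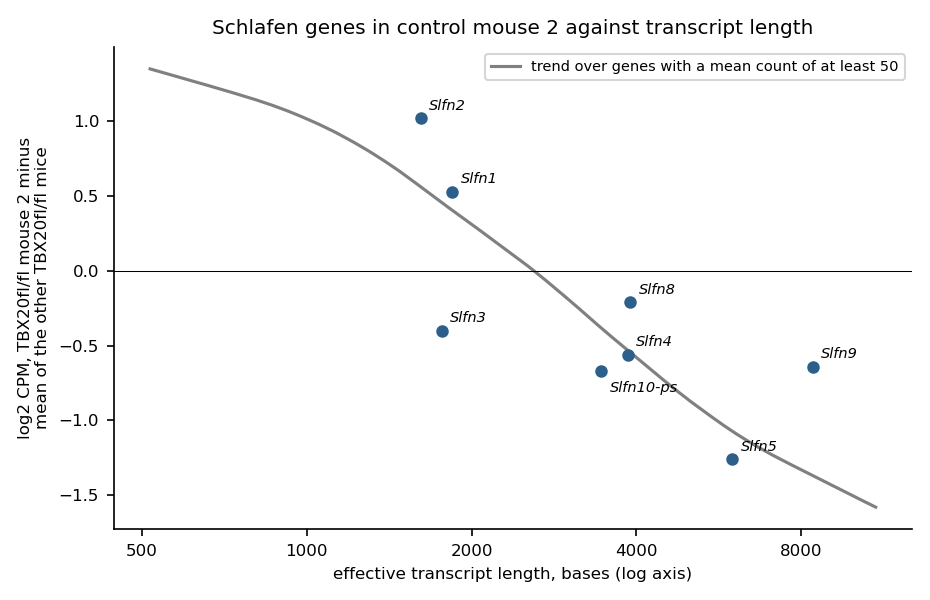
Log2 CPM of each Schlafen gene in control mouse 2 minus the mean of the other 3 controls, against effective transcript length in bases on a log axis, with the trend over genes whose mean count was 50 or more as a grey line. Slfn1, Slfn4 and Slfn5 differ from the line by 0.12, −0.03 and −0.19, Slfn2, Slfn8 and Slfn9 lie above it, and Slfn3 differs from it by −0.85.

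When a trend of log2 CPM with transcript length was removed from every mouse, all 7 members had lower means in TBX20fl/fl;K14-Cre skin. Their log2 fold changes were −0.82 for Slfn1, −0.71 for Slfn2, −0.06 for Slfn3, −1.17 for Slfn4, −0.30 for Slfn5, −0.60 for Slfn8 and −0.68 for Slfn9, and none passed after adjustment (edgeR adjusted p of at least 0.535). At an unadjusted p under 0.05, 5 of the 7 members were lower, beside 5.21% of all genes. The groups did not overlap for 3 members (Slfn1, Slfn2 and Slfn4), beside 2.54% of all genes. With control mouse 2 left out instead, 4 of the 7 members were lower at that unadjusted level, beside 4.5% of all genes. Slfn4 thus had the lowest fold change of the family in each of these fits, and Slfn3 was nearest to 0 in the fit with the length trend removed.

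**Figure D3:**
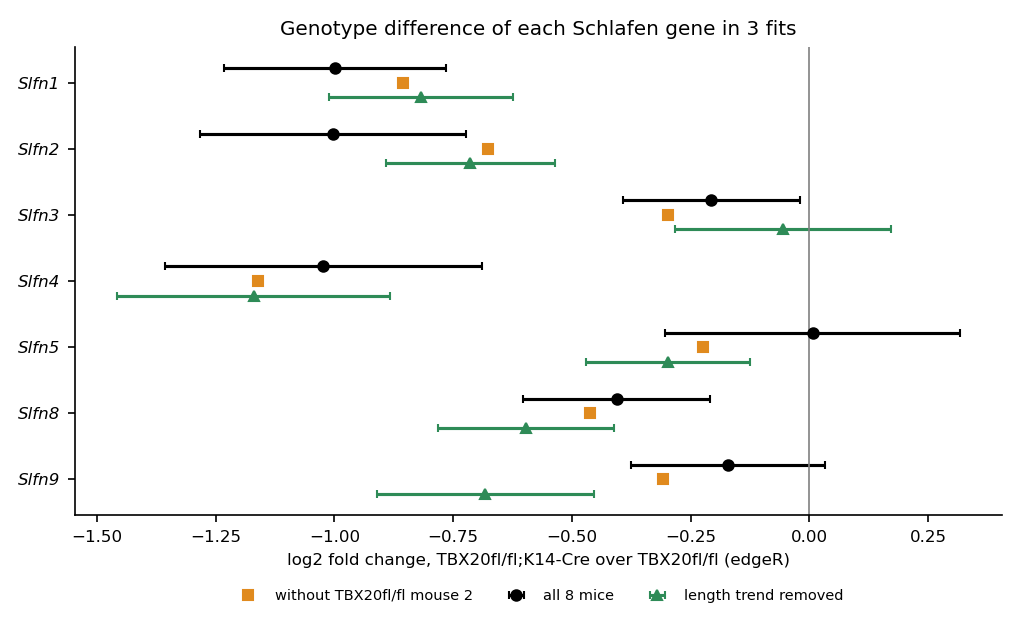
Log2 fold change of each Schlafen gene between genotypes in edgeR, with all 8 mice (circles), without control mouse 2 (squares) and with the length trend removed (triangles), where whiskers on circles and triangles are standard errors. Slfn1, Slfn2 and Slfn4 lie at −0.68 or lower in each fit shown, whereas Slfn9 moves from −0.17 to −0.68 when the length trend is removed.

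The median log2 fold change of the 7 members was −0.41, beside 0.03 over all genes tested. It was −0.68 with the length trend removed, beside 0.02 over all genes. The summed FPKM of the family was 253.5 to 300.1 in controls and 164.4 to 274.2 in TBX20fl/fl;K14-Cre mice. Mouse 4 of the latter was the one in the range of the controls. This mouse had the highest FPKM of its genotype for 6 of the members, with Slfn9 as the exception.

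Most other genes of the interferon response also had a negative log2 fold change in edgeR. Of 52 listed response genes, 50 were in the table, 49 had a negative log2 fold change (47.5% of all genes did), and 35 were lower at an unadjusted p under 0.05, beside the 5.91% given above. None passed in edgeR after adjustment, and the median log2 fold change was −0.73, or −0.58 with the length trend removed. The 35 became 24 without TBX20fl/fl;K14-Cre mouse 3 and 42 without TBX20fl/fl;K14-Cre mouse 4. Summed FPKM of the list overlapped, at 2910 to 4440 against 4142 to 6545 in controls. Non-overlapping groups with lower FPKM were found for 7 of the 50, beside 1.92% of all genes. With all mice the largest differences were in Cxcl9, a chemokine for activated T cells (log2 fold change −1.45), the ubiquitin-like Isg15 (−1.27), Ifi27l2a (−1.27), Rtp4 (−1.11) and the chemokine Cxcl10 (−1.11). The smallest were in Lgals3bp (−0.04), Parp14 (−0.04) and Dtx3l (0.03). The order depended on the length trend. With it removed, Cxcl9 (−1.49) was followed by Phf11d (−1.06), Iigp1 (−1.03) and Ifit1 (−1.01), whereas Isg15 was at −0.60, Ifi27l2a at −0.53, Rtp4 at −0.61, Cxcl10 at −0.61 and Parp14 at −0.41. With all mice Slfn1, Slfn2 and Slfn4 were below the median of this list, and Slfn8 and Slfn9 were below it as well once the trend was removed.

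**Figure D4:**
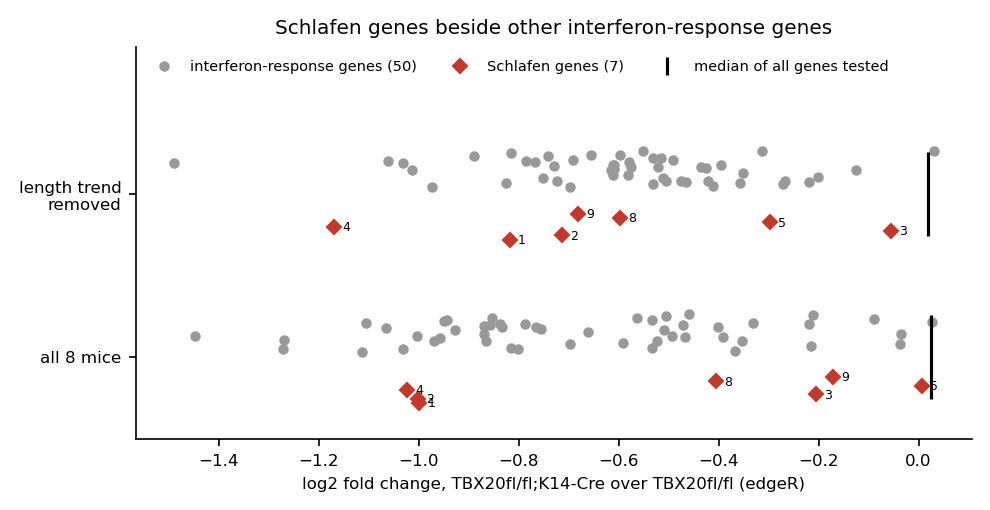
Log2 fold change between genotypes of 50 interferon-response genes (grey points) and of the 7 Schlafen genes (red diamonds, labelled by number), with all 8 mice and with the length trend removed, and the median of all genes tested as a black bar. Grey points have a median of −0.73 with all mice and −0.58 with the length trend removed, and Slfn4 lies toward their low end in both rows.

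Genes of interferon signalling itself were examined as a separate list. Among 18 tested ligands, receptors, kinases and factors, 14 had a negative log2 fold change, 4 of them at an unadjusted p under 0.05 (Ifnk, Ifng, Ifngr2 and Irf9) beside 5.91% of all genes, none passed in edgeR after adjustment, and the median was −0.20, or −0.21 with the length trend removed, when 6 were lower at that level beside 5.21% of all genes. The ligands Ifnb1, Ifnk and Ifng had log2 fold changes of −1.57, −2.82 and −1.58, or −0.84, −2.53 and −1.16 with the length trend removed. Their mean counts were 4.12, 4.00 and 5.62, so these differences rest on very few reads and were hardly measurable at this depth. For the receptors, log2 fold changes were 0.08 for Ifnar1, −0.35 for Ifnar2, −0.21 for Ifngr1, −0.33 for Ifngr2, 0.37 for Ifnlr1 and −0.41 for Il10rb. With the length trend removed, Ifnar1 changed sign to −0.34 and Ifnar2 was at −0.08. The kinases measured 0.13 for Jak1, −0.18 for Jak2 and 0.23 for Tyk2, and −0.12, −0.44 and 0.03 with the trend removed. Among the factors, values were −0.01 for Stat2, −0.48 for Irf9, −0.07 for Irf3, −0.16 for Irf5 and −0.20 for Irf8. Removing the trend gave −0.20 for Stat2 and turned Irf3 to 0.16.

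Marker lists of immune cells were measured in the same mice, and none of their genes passed in edgeR after adjustment. All 10 neutrophil markers had a negative log2 fold change in edgeR, 7 of them at an unadjusted p under 0.05 (Mmp9 at −0.002 was the smallest) beside 5.91% of all genes, and their summed FPKM was 226.3 to 441.5 against 469.7 to 1157.0 in controls. Of 10 monocyte and macrophage markers 7 had a negative log2 fold change, 5 at that level, with overlapping sums of 935.8 to 1412.0 against 1145.0 to 2288.0. Leaving out control mouse 2 or 3, or TBX20fl/fl;K14-Cre mouse 1 or 2, lowered the 5 to 3, and without control mouse 4 only 5 of the 10 were negative. Sums of 10 T cell markers, 2 of which were lower at that level and 0 with the length trend removed, were 27.9 to 36.8 against 30.2 to 59.6. The 2 became 0 without TBX20fl/fl;K14-Cre mouse 1 and 3 without control mouse 1 or 4. All 6 NK cell markers had a negative log2 fold change, 2 of them at that level, with a median of −0.64. With the length trend removed 2 were lower at that level, beside 5.21% of all genes, and the median was −0.54. Sums of the 6 overlapped, at 7.86 to 13.2 against 9.64 to 20.4. Of 5 Langerhans and dendritic cell markers 3 were negative, with a median of −0.01, and 1 (Cd207) was lower at that level, or 0 with the length trend removed. Of 5 B cell markers 3 were negative and 0 lower at that level. The sums of both lists overlapped. For mast cells, 5 markers summed to 478.1 to 534.8 against 581.3 to 866.4. With all mice 4 of them had a negative log2 fold change, 2 at that level, and the median was −0.38. With the length trend removed 2 were negative, both at that level beside 5.21% of all genes, and the median was 0.06. Summed FPKM of 7 keratinocyte markers was 3388 to 4352 against 2953 to 4397 and overlapped. Hair follicle markers went the other way, with 5 of 5 higher, 4 at an unadjusted p under 0.05 beside 2.45% of all genes that were higher, a median log2 fold change of 3.00, and sums of 29.2 to 1459 against 10.5 to 85.8, the highest being TBX20fl/fl;K14-Cre mouse 2. Without this mouse 4 of 5 were higher, 0 at that level, and the median was 0.68. The number at that level was also 0 without control mouse 1 (median 2.62) or control mouse 4 (median 2.75), and 1 without control mouse 3. None of these lists had a marker at or under 3 counts in the mean, and the part of these cells in the Schlafen differences was not tested.

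The members followed one another unevenly over the 8 mice. On the log2 CPM scale Pearson's r was 0.89 for Slfn1 with Slfn2 and 0.72 for Slfn8 with Slfn9, but 0.24 for Slfn3 with Slfn4. For Slfn2 with Slfn5 it was −0.38, and 0.73 with the length trend removed, so this relation rested on how the trend was treated. These values describe mice that share 2 genotypes and 1 library with a length trend, and no test was made of them.

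Among 13298 genes whose mean count was 50 or more, those whose log2 CPM over the 8 mice was most like a member by Pearson's r were named, 3 per member. These values include the difference between genotypes. By deviations from the genotype means, none of the 3 genes was the same for Slfn2 (P2ry10, Htra2 and Mesd) or Slfn3 (Spats2l, Mbp and Papss2). For Slfn5 they were Stat2 (0.99), Dtx3l (0.99) and Parp10 (0.98), and for Slfn8 they were Gbp5 (0.99), Eif2ak2 (0.98) and Ifih1 (0.97). Slfn2 was most like Ifi209 (0.99), Gm6377 (0.99) and Psmb8 (0.99). Control mouse 2 was the lowest mouse for Slfn5, Stat2 and Dtx3l alike. With the length trend removed, r was 0.69 to 0.96 for the 3 genes of Slfn5, 0.92 to 0.96 for those of Slfn8 and 0.92 to 0.94 for those of Slfn2. Slfn1 was most like Cd72 (0.99), Msr1 (0.98) and Pitpna (0.98), of which Cd72 is a B cell and Msr1 a macrophage receptor. Slfn4 was most like Gsr (0.99), Cd300lf (0.97) and Lrg1 (0.94). With the trend removed, r ranged from 0.70 to 0.93 for the genes of Slfn1 and from 0.53 to 0.95 for those of Slfn4. For Slfn3 they were Lysmd1 (0.95), Sigirr (0.94) and Nptx1 (0.94), and for Slfn9 Pias1 (0.96), Zfp281 (0.94) and Sept3 (0.93). These ranged from 0.06 (Nptx1) to 0.97 for Slfn3 and from 0.80 to 0.98 for Slfn9 with the trend removed. For the mean z-score of the family, by deviations from the genotype means, they were Oasl2 (0.98), Tubb4a (0.98), Rab8b (0.96), Alox15 (0.96) and Parp8 (0.95).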

How the data were processed

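The authors sequenced skin RNA of the 8 mice, with 1 library each and 50-base single-end reads, used SOAPnuke as read filter and HISAT as aligner. The authors deposited estimated counts, which are not normalized, and FPKM values made on the Dr. Tom platform. The counting program is not given in the sources used here. Columns of 17 comparisons by the authors (fold changes and p-values) were not used.

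Counts were rounded, and a gene was tested if its counts over all mice summed to 10 or more. The quasi-likelihood test in edgeR 4.0.16 (TMM scaling, R 4.3.3) compared the genotypes, with Benjamini-Hochberg adjustment over all 17124 genes and a threshold of 0.05. The SE of a log2 fold change was derived from its F statistic. Permutation tests of FPKM were two-sided and exact, over genes with a mean of 0.1 or more. Alternatives used DESeq2 1.42.0, limma 3.58.1 on log2(FPKM + 1), other filters, a replicate block, the removal of a length trend, and leaving out each mouse. The length trend was a lowess curve of each mouse's log2 CPM deviation on log2 effective length, over genes whose mean count reached 50, used as an offset in edgeR. Log2 CPM used a prior count of 2. Scripts used Python 3.11.15, and the tests across genes were tested on simulated data.

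Mice with the same replicate number in the deposited labels are different animals. The deviations of same-numbered mice from their genotype means correlated at r = 0.405, 0.319, 0.331 and 0.16 over 13298 genes, each above 0.1, so the numbers were treated as pairs in the blocked fit. Differently numbered mice reached such values as well, which weakens this basis. TBX20fl/fl;K14-Cre mouse 4 and control mouse 1 were at 0.426, mice 3 and 4 of these genotypes at 0.226, and mice 2 and 3 at 0.218. Totals of 16056282 to 19880654 counts put 3 counts at 0.151 to 0.187 CPM, and these floors cover counting error only.

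Members, gene lists and tests were chosen with earlier results of these data known. Named genes are the members and their relatives, Tbx20, the 5 interferon-response genes with the largest and the 3 with the smallest absolute log2 fold change (mean count of 50 or more), interferon-system genes with a mean count of 10 or more (1 of which is not reported here), and the genes most like the family (5) or each member (3) by Pearson's r. Interferon ligands, Mmp9, Phf11d, Iigp1, Ifit1 and the genes most like Slfn2 and Slfn3 by deviations were named in addition, after their values were seen. Promoters and loci are RefSeq on GRCm38.p6, for 7 of 7 members.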

Additional observations from a re-analysis of the deposited data

Results flagged for a closer look

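The TMM scaling factor of control mouse 2 was 0.735, far from the other 3 controls (1.01 to 1.04), with a gap to the nearest of them that was 0.883 of the range of the group. It was the only value of 42 groups of 4 mice examined that stood apart by Dixon's criterion, and chance alone would give about 2.1. No member stood apart in this way in either genotype, in FPKM or in log2 CPM with the length trend removed.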

How the results depend on the processing

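Across 20 alternatives, Slfn1, Slfn2, Slfn3, Slfn4, Slfn8 and Slfn9 were lower in TBX20fl/fl;K14-Cre mice in each, and no member passed the threshold in any, the smallest adjusted p being 0.0715 for Slfn1 in DESeq2. The number of genes past the threshold was 0 with edgeR and limma and 10 with DESeq2, and the cause was not tested. Slfn5 changed sign, with a log2 fold change of −0.003 with DESeq2 and −0.003 with its size factors in edgeR, −0.297 with the length trend removed, −0.309 with that and the replicate block, −0.342 with that and control mouse 2 left out (an alternative chosen after seeing the data), and −0.223 to 0.197 when each mouse was left out in turn. The median of the members moved from −0.406 to −0.682 with the length trend removed and to −0.661 with the replicate block added. The replicate block alone gave a median of −0.413 and changed no call, with 0 genes past the threshold. On the log2(FPKM + 1) scale the median of all genes was 0.116, and 0.178 with a pseudocount of 0.1, against 0.026 for the counts, the median of the members was −0.242, and Slfn4 had an unadjusted p of 0.0539. With 4 mice per genotype and all mice as deposited, the differences of Slfn3, Slfn5, Slfn8 and Slfn9 were within the spread between mice, and those of Slfn8 and Slfn9 were larger with the length trend removed.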
